A study of Mus musculus with 40 samples.

Results

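Ciart and 9 other genes of the circadian clock were followed in ribosome-bound RNA of astrocytes. The genes are the clock repressors Ciart, Per1, Per2, Per3, Cry1 and Cry2, the nuclear receptors Nr1d1 and Nr1d2, and the output factors Dbp and Tef. They are 10 of the 32531 gene symbols counted in the series, and every symbol had a row in all 40 libraries. The set was built around Ciart, which had been chosen by its measured rise after defeat in 2 of the 4 regions, so its differences between conditions are given as a description, with no test. The other 9 genes were tested within fits across all genes.

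Mice carried the transgene Tg(Aldh1l1-EGFP/Rpl10a)JD130Htz, which tags a ribosomal protein with EGFP from regulatory sequence of Aldh1l1, a gene active in astrocytes, so that ribosomes of these cells and their RNA can be pulled down with antibodies against EGFP (TRAP-seq). Every mouse of every group carried it. On each of 10 days an adult mouse was put into direct contact with an aggressive CD1 mouse for 10 minutes. Defeated mice with a social interaction index under 1 formed the stressed (susceptible) group, and defeated mice with an index over 1 formed the resilient group. Control mice were not defeated, shared the room and had an index over 1. Tissue was taken 2 days after the last defeat. The prefrontal cortex (PFC) gave 3 control, 4 resilient and 5 stressed libraries, the hippocampus (HIP) 3, 3 and 5, the nucleus accumbens (NAC) 3, 3 and 4, and the caudate putamen (CPU) 2, 2 and 3. A library was a pool of 2 mice, or of 4 to 6 mice for the NAC. The labels do not say which mice gave several regions. The hour of the day at which tissue was taken is not given in the sources used here.

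The mammalian clock is a feedback loop of transcription. The proteins of Arntl (also called Bmal1) and Clock bind E-boxes and drive the Per, Cry, Nr1d, Dbp and Ciart genes. The PER, CRY and CIART proteins then block that drive, the NR1D receptors repress Arntl, and DBP and TEF bind D-boxes in further genes. Transcripts of this loop rise and fall over the day in many tissues, and astrocytes carry a clock of their own.

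Promoters show which of these elements lie next to the starts of the genes, and 9 of the 10 genes had at least 1 promoter in the RefSeq table (GRCm38.p6), 11 promoters in all. The 250 bases before each start were searched on both strands for the E-box CACGTG, the related CACGTT, the D-box TTATGTAA and the cyclic AMP response element TGACGTCA. The Ciart sequence is shown because it holds 3 E-boxes, starting at −116, −58 and −44 from the start. Of 32851 promoters in the table, 6.02% held at least 1 E-box in this window and 20 (0.0609%) held 3 or more. Cry1 and Per1 are shown for comparison with 1 E-box each, and Per3 for its 2 D-boxes, a motif that 0.819% of promoters held. Capitals mark CACGTG in Ciart, Cry1 and Per1, CACGTT (read on the other strand as AACGTG) in Cry1, and TTATGTAA in Per3. The windows are chr3:95882229-95882478 (minus strand) for Ciart, chr10:85185055-85185304 (minus) for Cry1, chr11:69098699-69098948 (plus) for Per1 and chr4:151044666-151044915 (minus) for Per3.
Ciart: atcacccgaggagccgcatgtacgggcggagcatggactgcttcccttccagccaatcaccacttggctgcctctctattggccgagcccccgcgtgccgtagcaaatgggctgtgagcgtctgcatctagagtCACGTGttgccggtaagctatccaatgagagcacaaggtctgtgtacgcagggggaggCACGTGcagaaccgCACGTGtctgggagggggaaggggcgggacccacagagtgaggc
Cry1: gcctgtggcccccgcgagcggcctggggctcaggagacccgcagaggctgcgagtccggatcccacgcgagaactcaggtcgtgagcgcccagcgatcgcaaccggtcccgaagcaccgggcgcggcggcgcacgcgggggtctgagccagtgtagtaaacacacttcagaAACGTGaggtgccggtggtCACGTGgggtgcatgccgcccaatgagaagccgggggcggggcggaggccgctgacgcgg
Per1: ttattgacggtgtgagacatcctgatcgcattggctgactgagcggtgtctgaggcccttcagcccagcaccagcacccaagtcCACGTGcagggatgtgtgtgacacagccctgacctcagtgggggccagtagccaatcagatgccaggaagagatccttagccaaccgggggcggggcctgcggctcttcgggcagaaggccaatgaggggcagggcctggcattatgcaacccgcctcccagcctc
Per3: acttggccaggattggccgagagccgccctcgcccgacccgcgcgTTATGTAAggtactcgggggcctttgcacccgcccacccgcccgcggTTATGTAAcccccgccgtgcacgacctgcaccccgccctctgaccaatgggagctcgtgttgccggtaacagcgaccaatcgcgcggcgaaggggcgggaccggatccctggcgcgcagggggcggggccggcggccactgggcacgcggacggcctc
Both Tef promoters also held 1 E-box. Cry2 and Nr1d1 held 1 CACGTT each. The windows of Dbp, Nr1d2 and the second promoter of Per1 held none of these letter strings, which says nothing of sites outside the windows. None of the 11 windows searched held TGACGTCA, which 1.55% of all promoters did. Per2 was not in the table.

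No library held fewer than 153 counts of any of the 10 genes. The reads assigned to genes amounted to 21.3 M in the shallowest library, 25.6 M in the median and 33 M in the deepest. All 10 astrocyte markers were found in every library, with a summed level of 18980 to 41450 CPM (counts per 1 M counts, scaled by TMM factors), against 558 to 4280 CPM for 8 neuronal markers and 9.73 to 62.8 CPM for 7 microglial markers. None of those 25 markers was at 0 in any library. The summed level of 6 oligodendrocyte markers ran from 771 to 2241 CPM. Deposited files carried the region name in a long or a short form, and the forms were spread unevenly over conditions. In 6 stressed libraries long transcripts were high and short ones low: the correlation, over 11768 genes, of a gene's deviation from its region's mean with log2 exon length was 0.403 to 0.501 there and at most 0.273 in the other 34. These were PFC stressed replicates 4 and 5, HIP stressed replicates 2 and 3, NAC stressed replicate 4 and CPU stressed replicate 3, of which all but the CPU library had the long form. For PFC and four-region results that rest on them, values or calls without them are given too. The PFC stressed group then keeps only its 3 short-form libraries, against 1 short and 3 long resilient and 1 short and 2 long control libraries. File form and stress thus largely coincide in those PFC fits, and cannot be cleanly told apart there. In bulk RNA, fewer cells of a type and less RNA per cell cannot be told apart.

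Control libraries give the levels without defeat. Per kilobase of exon, Dbp was the most abundant, at 90.7 ± 11.2 CPM per kb (SD, n = 11 control libraries of all regions). Cry2 (38.9 ± 8.40), Tef (35.3 ± 6.71), Nr1d1 (27.6 ± 5.70), Nr1d2 (19.0 ± 5.97) and Cry1 (16.4 ± 3.12 CPM per kb) followed. Ciart stood at 7.35 ± 1.73 CPM per kb, above Per1 (3.23 ± 0.568), Per2 (1.90 ± 0.476) and Per3 (1.46 ± 0.314 CPM per kb). Cry2 and Tef, and Nr1d2 and Cry1, differed by less than their SDs. Exons of Dbp share 539 bases (18.0% of its exon length) with Sphk2 on the other strand, and those of Nr1d1 share 263 bases (8.55%) with Thra. Whether counting used strand is not given in the sources used here, so reads of these stretches cannot be assigned to 1 gene with certainty.

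Among control regions the hippocampus stood lowest for several of these genes. Nr1d2, which encodes REV-ERB beta, read 67.0, 73.5 and 75.2 CPM in the 3 HIP control libraries, 79.8 to 101 CPM in the PFC, 99.9 to 160 CPM in the NAC and 108 and 143 CPM in the CPU. Its HIP libraries lay below all 8 others, and the fitted log2 difference between HIP and the average of the remaining regions was −0.66 ± 0.16 (SE, adjusted p = 0.0190). Cry2, a repressor, stood at 188 ± 9.47 CPM in HIP against 236 ± 28.5 in PFC, 298 ± 52.7 in NAC and 268 ± 38.1 CPM in CPU, a difference of −0.50 ± 0.13 (adjusted p = 0.0266). Its HIP libraries (179 to 198 CPM) also lay below all others. Cry1 read 43.4 ± 5.87 CPM in HIP and 63.1 ± 4.53 CPM in NAC, with HIP lower by −0.45 ± 0.12 (adjusted p = 0.0286), although HIP and PFC libraries overlapped.

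These were 3 of the 10 genes called lower in HIP, where 4.68% of the 16053 genes tested were called lower and 13.5% were called in either direction. The 10 genes had a median log2 difference of −0.37 in HIP, and all genes of 0.02. The joint test of the 4 regions called the same 3 genes (adjusted p = 0.0167 for Nr1d2, 0.0318 for Cry1 and 0.0424 for Cry2), and 18.8% of all genes. No gene of the set was called in PFC, NAC or CPU against the other regions, where 12.7%, 2.17% and 5.61% of all genes were. Each of the 3 HIP calls was lost when single control libraries were left out, with adjusted p up to 0.101 for Cry1, 0.103 for Cry2 and 0.0643 for Nr1d2, while the log2 differences stayed between −0.34 and −0.72. Choroid plexus markers were high in 2 of the 3 HIP control libraries (summed level 57.1, 7577 and 6773 CPM), and their part in the HIP differences was not tested.

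Other clock genes of the fixed pathway list differed in HIP controls as well. Of 12 genes for activators and the second loop, 4 were called lower and 1 higher there, against 4.68% and 8.78% of all genes. Npas2, a partner of ARNTL like Clock, was lower by −0.996 ± 0.169 (adjusted p = 0.00350), Hlf, a relative of Dbp and Tef, by −0.90 ± 0.13 (adjusted p = 0.00128), and Rorb by −0.71 ± 0.16 (adjusted p = 0.0146). Cipc, which binds CLOCK and inhibits it, was lower by −0.43 ± 0.10 (adjusted p = 0.0160). Of 13 genes that modify clock proteins 1 was called, Gsk3b, a kinase of clock proteins (−0.45 ± 0.11, adjusted p = 0.0233), and of 7 clock-controlled outputs none. Ciart itself did not differ detectably between control regions, with 16.7 ± 4.71 CPM in PFC, 15.7 ± 3.44 in HIP, 16.7 ± 2.75 in NAC and 17.7 ± 8.10 CPM in CPU (joint test, adjusted p = 0.972).

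In PFC and NAC, Ciart was higher after defeat than in controls of the same region. The gene lies at chr3:95878503-95882251 on the minus strand of GRCm38, and its 2.261 kb of exon overlap no other annotated exon. In the PFC the controls read 21.6, 12.2 and 16.4 CPM, the resilient libraries 27.4, 24.7, 29.8 and 30.4 CPM, and the stressed libraries 25.9, 26.6, 27.6, 29.6 and 35.9 CPM. All 9 defeated libraries lay above all 3 controls, and the resilient and stressed libraries overlapped. In the NAC the controls read 17.3, 19.0 and 13.7 CPM, the resilient libraries 29.3, 21.99 and 28.9 CPM, and the stressed libraries 30.3, 43.1, 38.7 and 33.1 CPM. Here all 7 defeated libraries lay above the controls, and the stressed above the resilient. Of all genes tested in the PFC, 14.5% had every stressed and 3.27% every resilient library above all controls. In the NAC these shares were 0.759% and 2.30%, and 1.95% had the stressed above the resilient.

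The hippocampus and caudate putamen differed less clearly. HIP controls read 16.7, 11.9 and 18.6 CPM, resilient libraries 14.4, 17.5 and 18.0 CPM, and stressed libraries 27.8, 20.1, 15.0, 27.6 and 23.2 CPM. Resilient HIP libraries lay among the controls, and 4 of the 5 stressed lay above both groups. CPU controls read 23.5 and 12.0 CPM, resilient libraries 19.5 and 25.9 CPM, and stressed libraries 26.4, 35.5 and 32.3 CPM. The stressed CPU libraries lay above the other 4, while control and resilient libraries overlapped. In the CPU 12.4% of all genes had stressed libraries above all controls. Over the 4 regions, 24 of 29 defeated libraries exceeded the highest Ciart control of their region, a count on values by which Ciart was chosen. The same count was 19 for Per2, 16 for Dbp and for Nr1d2, 14 for Per3 and for Tef, and 13 for Cry2. It was 9 for Per1 and 6 for Cry1 and for Nr1d1. This count was not made over all genes, so it has no share to stand against. The Per2 count includes all the length-trend libraries.

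**Figure D1:**
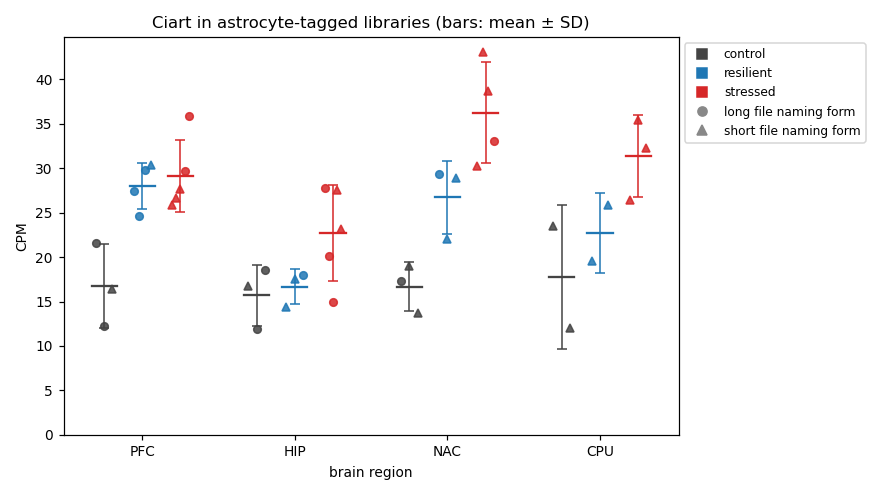
Ciart in CPM (TMM-scaled) by region and condition, with a point for each library, bars for the group mean ± SD, and the form of the file name as the point's shape. In PFC and NAC every resilient and stressed library lies above every control, and in HIP the resilient libraries lie among the controls.

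As fitted log2 fold changes, Ciart in stressed against control libraries was 0.80 ± 0.17 (SE) in PFC, 1.13 ± 0.18 in NAC, 0.83 ± 0.30 in CPU and 0.55 ± 0.23 in HIP. For resilient against control the values were 0.74 ± 0.18 in PFC, 0.70 ± 0.19 in NAC, 0.41 ± 0.32 in CPU and 0.08 ± 0.25 in HIP. Both sets share the control libraries. Averaged over regions, stressed libraries stood 0.82 ± 0.11 and resilient libraries 0.47 ± 0.12 above controls, a difference of 0.35 ± 0.11 between them. Without the 6 libraries of the length trend the stressed values were 0.65 in PFC, 1.16 in NAC, 0.79 in CPU, 0.73 in HIP and 0.84 on average. Within the PFC the stressed value was 0.98 among libraries of the long form and 0.68 among those of the short form. A single control library moved the CPU value, from 0.43 without control replicate 2 to 1.39 without control replicate 1, and for resilient CPU from 0.02 to 0.96. The means of the 12 groups ran from 36.3 ± 5.73 CPM in NAC stressed down to 15.7 ± 3.44 CPM in HIP controls. CPU stressed (31.4 ± 4.62), PFC stressed (29.1 ± 4.05), PFC resilient (28.1 ± 2.60), NAC resilient (26.7 ± 4.12), HIP stressed (22.7 ± 5.38) and CPU resilient (22.7 ± 4.51 CPM) came next, and the controls and HIP resilient (16.6 ± 1.96 CPM) came last. In each of the 11 pairs of neighbours in this order the means differed by less than the larger SD.

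None of the other 9 genes was called in the stressed against control comparison. The changes furthest from 0 among them outside the PFC were those of Per2, 0.68 ± 0.33 in HIP and 0.55 ± 0.30 in NAC, which were 0.17 and 0.22 without the length-trend libraries. In the PFC none was called by edgeR or by DESeq2 (28.1% of all 15491 genes were called by edgeR). Cry1 alone of the 9 was under 0.05 before adjustment, with a change of −0.24 ± 0.10 (edgeR adjusted p = 0.104). In HIP, NAC and CPU edgeR called 0 genes of any kind, with 1312, 179 and 1430 genes at an unadjusted p under 0.05 and 0, 1 and 40 genes called by DESeq2. None of the 9 was called in the four-region average, where 10.2% of genes were called, or among resilient against control averages, where 0.0179% were. With PFC left out, the average of the other regions called 0 genes. The tests of whether the effect differed between regions called none of the 9 and 0 genes in all, against 2108 genes at an unadjusted p under 0.05 for stressed and 273 for resilient mice.

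In the PFC, Cry1, Tef and Nr1d2 were lower in stressed than in resilient mice. Nr1d2 read 101, 117, 115 and 94.4 CPM in resilient and 65.9, 69.2, 72.7, 90.7 and 84.0 CPM in stressed libraries, with controls at 101, 80.6 and 79.8 CPM. All stressed libraries lay below all resilient ones, and controls overlapped both. The fitted change was −0.48 ± 0.12 (adjusted p = 0.0133). Tef, a D-box activator, read 289, 318, 306 and 279 CPM in resilient and 200, 210, 213, 268 and 261 CPM in stressed libraries, with controls at 278, 225 and 256 CPM. These groups did not overlap either, and the change was −0.37 ± 0.11 (adjusted p = 0.0263).

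Cry1 read 49.4, 57.0, 49.0 and 55.6 CPM in resilient and 41.9, 44.7, 38.7, 39.5 and 46.3 CPM in stressed libraries, with controls at 55.1, 48.3 and 45.7 CPM. Its change was −0.32 ± 0.10 (adjusted p = 0.0286), and again no stressed library reached the lowest resilient one. Dbp, the best known output gene of the loop, read 357, 355, 368 and 389 CPM in resilient and 322, 321, 318, 244 and 299 CPM in stressed libraries. The 2 groups did not overlap, but the change of −0.29 ± 0.11 missed the threshold (adjusted p = 0.0798). Dbp controls at 328, 229 and 272 CPM lay below the resilient libraries too, and the resilient difference from control was 0.41 ± 0.13 (unadjusted p = 0.00856, adjusted p = 1).

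Calls numbered 3 of 9 in this comparison, all lower, where 25.0% of all genes were called and 10.7% were called lower. Groups did not overlap for 4 of 9 genes, all lower, against 11.8% of all genes. The median log2 change of the 9 genes was −0.13 and that of all genes 0.03. Cry2 (254 ± 26.4 CPM in resilient, 233 ± 40.3 CPM in stressed libraries), Per1, Per2, Per3 and Nr1d1 were not called. Nr1d1, which encodes REV-ERB alpha, stood at 94.9 ± 17.5, 90.7 ± 13.2 and 96.3 ± 7.36 CPM in PFC control, resilient and stressed libraries.

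**Figure D2:**
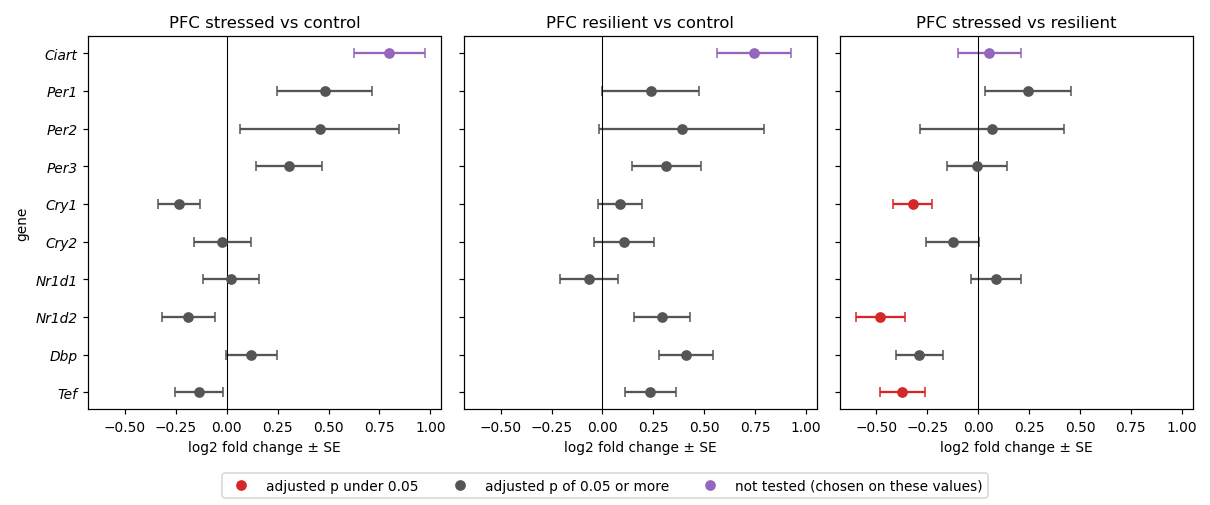
Fitted log2 fold changes with standard errors of the 10 genes in the prefrontal cortex, with a panel for each pair of conditions and a vertical line at 0. Cry1, Tef and Nr1d2 pass the threshold in stressed against resilient libraries, and Ciart, which was not tested, stands at 0.80 and 0.74 against controls and at 0.06 between the defeated groups.

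The PFC calls rested in part on the resilient libraries. Without resilient replicate 2 none of the 3 was called, with adjusted p of 0.0971 for Cry1, 0.0859 for Tef and 0.0527 for Nr1d2. Without resilient replicate 1, or without stressed replicate 3, only Nr1d2 was called. Every setting tried kept the 3 changes negative. Without the 2 stressed libraries of the length trend they were −0.36, −0.55 and −0.65 (adjusted p = 0.00720, 0.000130 and 0.000209), and Per2 (−0.79, adjusted p = 0.00151) and Cry2 (−0.34, adjusted p = 0.00930) were called lower as well. That was 5 of 9 genes, against 18.2% of all genes called lower. All 3 stressed libraries left had the short form and 3 of the 4 resilient ones the long form. The smaller p-values there cannot be separated from file form. With naming form as a covariate in the fit of all PFC libraries, 4 of 9 were called lower and 0 higher. Of 15491 genes 1821 were called lower and 2467 higher in that fit. Among long-form libraries Nr1d2 and Dbp were called lower (24.2% of all genes) and Per1 and Per2 higher (27.3%), and among short-form libraries 6 of 9 were called lower (11.3% of all genes), with the lone resilient and the lone control library of that form assumed to vary like the stressed ones. Markers of some other cells were higher in the stressed PFC libraries. Summed microglial markers were 12.0 to 18.2 CPM in controls, 16.6 to 18.5 in resilient and 21.0 to 62.8 CPM in stressed libraries. Endothelial markers were 7.29 to 11.8, 9.25 to 9.82 and 16.6 to 41.4 CPM, and neuronal markers 1914 to 2468, 2156 to 2540 and 2601 to 4280 CPM in the same order. Oligodendrocyte markers (786 to 1015, 800 to 964 and 771 to 1075 CPM) and choroid plexus markers (3.61 to 8.78, 4.51 to 7.98 and 5.21 to 44.6 CPM) overlapped between the groups. The part of these other cells in the PFC differences was not tested.

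Per1 and Per2, which are also induced quickly by many stimuli, were high in single stressed libraries. Per2 read 9.59, 7.24 and 10.1 CPM in PFC controls, 10.7, 10.8, 14.2 and 11.3 CPM in resilient libraries and 7.96, 5.87, 6.97, 20.01 and 20.9 CPM in stressed libraries. The stressed PFC libraries thus fell into 3 below every resilient library and 2 above, and the 2 high ones are those of the length trend. In HIP the stressed libraries read 10.8, 21.5, 21.6, 11.7 and 9.99 CPM against 7.74 to 12.8 CPM in controls, and in NAC 11.8, 16.1, 20.2 and 31.5 CPM against 10.95 to 15.4 CPM. The highest HIP and NAC values again came from libraries of the length trend, as did the highest of the CPU stressed values of 10.2, 12.9 and 18.1 CPM.

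Per1 was also highest in the length-trend libraries of PFC, HIP and NAC, but not of CPU. In the PFC stressed group it read 14.3, 23.0, 18.0, 25.7 and 33.1 CPM, in HIP 14.0, 25.8, 27.7, 21.7 and 15.1 CPM and in NAC 18.4, 25.3, 18.4 and 31.2 CPM. In CPU stressed libraries it read 15.1, 16.7 and 14.4 CPM, and the lowest was the library of the trend. In the 5 long-form libraries of the length trend, summed neuronal markers were 2585 to 4280 CPM and summed astrocyte markers 20550 to 27940 CPM, against 958 to 2816 and 26540 to 37020 CPM in the other stressed libraries of those regions. Among long-form PFC libraries Per1 (0.82, adjusted p = 0.00177), Per2 (1.30, adjusted p = 3.44e-05), Per3 (0.55, adjusted p = 0.0224) and Cry2 (0.30, adjusted p = 0.0250) were called higher in stressed than in control mice, where 29.5% of all genes were. Short-form PFC libraries include a single control, so their changes of −0.56 for Per2, −0.33 for Cry2 and −0.32 for Tef compare 3 stressed libraries with that 1. The fit, which assumes that the lone library varies like the stressed ones, called Cry2 and Tef lower, with 10.9% of all genes. Without the length-trend libraries the PFC change of Per2 in stressed against control mice was −0.40 (adjusted p = 0.0818) in place of 0.46, and Cry1 (−0.28, adjusted p = 0.0405), Tef (−0.31, adjusted p = 0.00986) and Nr1d2 (−0.36, adjusted p = 0.0168) were called lower, 3 of 9 against 18.0% of all genes. The stressed libraries left there all had the short form, and 2 of the 3 controls the long form.

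**Figure D3:**
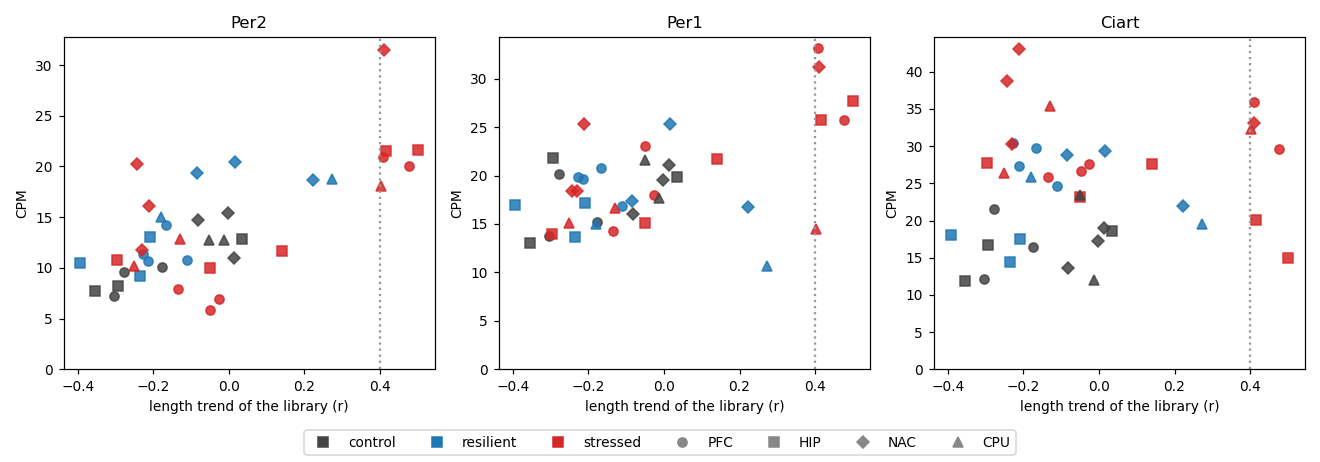
Levels of Per2, Per1 and Ciart in CPM for each of the 40 libraries, plotted against the library's length trend (the correlation over genes of deviation from the region mean with log2 exon length), with a dotted line at 0.4. The 5 long-form stressed libraries beyond the line hold Per2 at 20.01 to 31.5 CPM, while the highest Ciart level, 43.1 CPM, comes from a library at −0.21.

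Per3 varied less than its paralogs. In PFC it stood at 12.3 ± 2.01 CPM in control, 15.3 ± 2.02 in resilient and 15.2 ± 2.36 CPM in stressed libraries, and none of its region contrasts was called. The four-region average of stressed against control was 0.19 ± 0.08 (unadjusted p = 0.0301, adjusted p = 0.125), and that of Per2 0.44 ± 0.19 (adjusted p = 0.112). The Per2 average includes the length-trend libraries, which held its highest level in the stressed group of every region. Without them its change was smaller in HIP and NAC and negative in PFC, as given above. Neither Per2 nor Per3 was called in the average without them. Per2 was higher in resilient than control libraries without overlap in PFC, NAC and CPU, with 18.6 to 20.4 CPM against 10.95 to 15.4 CPM in the NAC and 18.8 and 15.0 against 12.8 and 12.7 CPM in the CPU. In the PFC 3 of 9 genes (Per2, Dbp and Tef) had resilient libraries above all controls, where 3.27% of all genes did. In the NAC the 3 were Per2, Per3 and Dbp, where 2.30% of genes did. None of these passed the test, and edgeR called 0 genes in either comparison, with 364 and 119 genes at an unadjusted p under 0.05 and 0 called by DESeq2.

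Dbp, like Ciart, separated defeated from control libraries in the NAC. Its NAC controls read 276, 265 and 293 CPM, resilient libraries 336, 300 and 411 CPM and stressed libraries 340, 423, 460 and 338 CPM. All 7 defeated libraries lay above the controls, and the stressed change of 0.49 ± 0.15 had an unadjusted p of 0.00699 but an adjusted p of 1.00. It was 0.55 without the length-trend library of the NAC. Stressed libraries lay above all controls for 1 of 9 genes there (Dbp) and for 0.759% of all genes. In CPU no defeated library exceeded the highest Dbp control (289 and 309 CPM in controls, 208 and 276 CPM in resilient, 276 to 301 CPM in stressed libraries). Without the length-trend libraries Dbp was the only gene of the 9 called higher in the four-region stressed average (0.29, adjusted p = 0.00703), against 0.19 ± 0.09 with them (adjusted p = 0.171). In the fit without them 1612 of 16606 genes were called higher. All libraries left out were stressed ones, and all but the CPU library had the long form. File form and stress thus partly coincide in that fit.

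**Figure D4:**
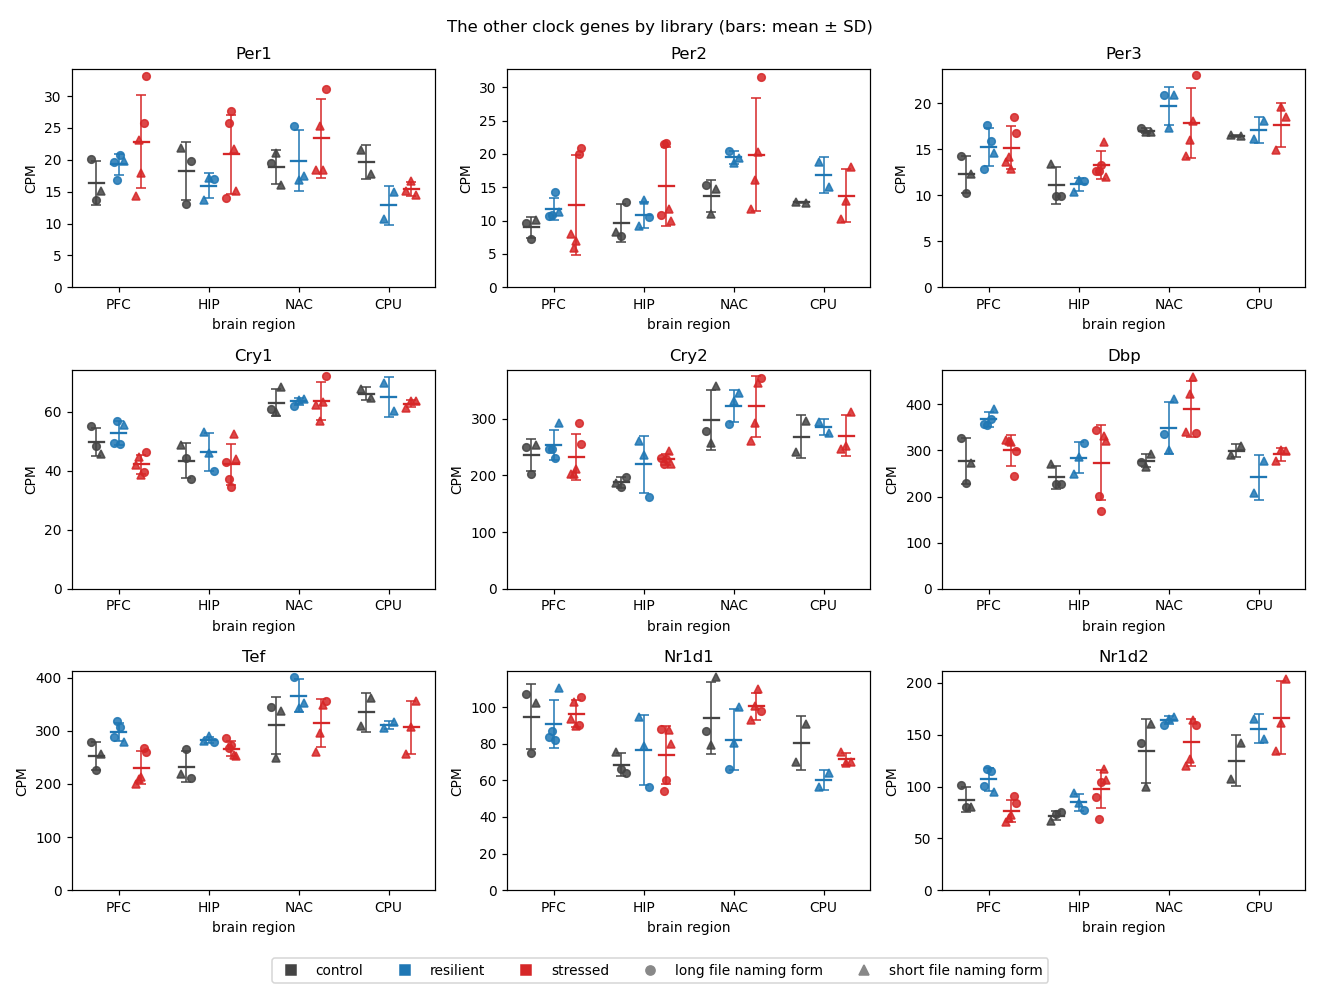
The other 9 genes in CPM by region and condition, with a point for each library, bars for the group mean ± SD and the form of the file name as the point's shape. Per2 in PFC stressed libraries splits into 3 at 5.87 to 7.96 CPM and 2 at 20.01 and 20.9 CPM, and all 7 defeated NAC libraries hold Dbp above the controls.

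Outside the PFC, Nr1d2 had higher means in stressed than in control libraries, with no call. In HIP it stood at 71.9 ± 4.34 CPM in control, 84.9 ± 8.18 in resilient and 97.5 ± 18.6 CPM in stressed libraries, and in CPU at 125 ± 24.6, 156 ± 14.0 and 167 ± 35.2 CPM. The stressed change from control was 0.46 ± 0.17 in HIP, 0.42 ± 0.21 in CPU, 0.10 ± 0.18 in NAC and −0.19 ± 0.13 in PFC (0.53, 0.22, 0.02 and −0.36 in this order without the length-trend libraries), and the test of the difference between regions gave an unadjusted p of 0.0367 and an adjusted p of 0.365. Its resilient average over the regions was 0.28 ± 0.09 (unadjusted p = 0.00470, adjusted p = 0.363). Nr1d1, its paralog, stayed between group means of 60.2 ± 5.55 CPM in CPU resilient and 100 ± 7.20 CPM in NAC stressed libraries, with no call. In the four-region stressed against resilient average, where 19.1% of genes were called, none of the 9 was, the nearest being Tef (−0.17 ± 0.07, adjusted p = 0.0582). Without the length-trend libraries 2 of the 9 were called lower in this average, where 1981 of 16606 genes were. With a replicate block 2 were called lower, where 1040 of 16759 genes were.

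In HIP and CPU some genes had groups without overlap, and none passed the test. Stressed HIP libraries lay above all controls for Cry2 only (1.07% of all genes) and above all resilient ones for Per3 only (3.75%), and resilient HIP libraries lay above controls for Tef and Nr1d2 (3.15%). In the CPU, with 2 or 3 libraries a group, resilient libraries lay above controls for Per2 and Nr1d2 (15.9% of all genes) and below them for Per1, Dbp and Nr1d1 (22.7%). Stressed CPU libraries lay below controls for Per1 and Cry1 (14.0%) and above resilient ones for Nr1d1 (13.8%). Cry2 in HIP read 187, 179 and 198 CPM in controls and 231, 220, 229, 243 and 220 CPM in stressed libraries, which did not overlap (0.30 ± 0.16, adjusted p = 0.525, and 0.29 without the length-trend libraries). Tef in HIP read 219, 266 and 212 CPM in controls and 281, 290 and 279 CPM in resilient libraries, again without overlap (0.29 ± 0.14, adjusted p = 1). Summed choroid plexus markers in HIP were 57.1 to 7577 CPM in control, 450 to 1866 in resilient and 55.6 to 10730 CPM in stressed libraries. Their part in these HIP values was not tested. Per1 in CPU read 21.6 and 17.7 CPM in controls, 10.7 and 15.0 CPM in resilient and 15.1, 16.7 and 14.4 CPM in stressed libraries, all 5 defeated ones below both controls. Its changes there were −0.56 ± 0.22 in resilient (adjusted p = 0.573) and −0.35 ± 0.20 in stressed mice (adjusted p = 0.587, and −0.32 without the length-trend library).

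In the PFC, some genes of the activating arm and the second loop were lower in stressed than in control mice. Of the 12 genes of that list, 4 were called lower and none higher (11.7% and 16.4% of all genes), with a median log2 change of −0.08 against 0.04 for all genes. Arntl, the activator that the Nr1d receptors repress, stood at 74.8 ± 9.50 CPM in control, 59.2 ± 2.29 in resilient and 56.7 ± 8.17 CPM in stressed libraries, a stressed change of −0.40 ± 0.13 (adjusted p = 0.0321). All 4 resilient libraries (56.2 to 61.8 CPM) lay below the lowest control (64.2 CPM), as they did for 4.09% of all genes, but that change of −0.34 ± 0.13 was not called (adjusted p = 1). Rorb, a nuclear receptor that competes with the NR1D receptors, fell from 201 ± 11.5 to 155 ± 3.42 CPM (−0.37 ± 0.08, adjusted p = 0.00526), and Hlf by −0.32 ± 0.10 (adjusted p = 0.0330). Clock was not called against control (0.27 ± 0.15, adjusted p = 0.187) but was higher in stressed than in resilient mice (0.40 ± 0.14, adjusted p = 0.0479), where Rorb and Hlf were again lower. There the list had 3 calls lower and 1 higher, against 10.7% and 14.3% of all genes. Npas2 was called in neither (−0.05 ± 0.22 against control). Without the length-trend libraries 4 of the 12 were called lower and 1 higher against control (18.0% and 19.9% of all genes), with Arntl at −0.57, Rorb at −0.41 and Hlf at −0.29 still called. Npas2 was then lower as well (−0.50 ± 0.10, adjusted p = 0.00124), and Clock against resilient mice was not called (0.29 ± 0.14, adjusted p = 0.116). The stressed libraries left in that fit all had the short form.

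Of 13 genes that modify clock proteins, 3 were called higher and 3 lower in stressed against control PFC, against 16.4% and 11.7% of all genes. Fbxl21, a ubiquitin ligase subunit for CRY proteins, fell from 6.21 ± 0.846 to 3.12 ± 0.475 CPM (−0.99 ± 0.16, adjusted p = 0.00184). Hdac3, the deacetylase that works with the NR1D receptors, fell from 232 ± 7.90 to 157 ± 27.4 CPM (−0.57 ± 0.12, adjusted p = 0.00660), and Fbxw11, a ligase subunit for PER proteins, changed by −0.49 ± 0.17 (adjusted p = 0.0497). Nono, which binds PER proteins, rose from 89.5 ± 11.3 to 140 ± 21.2 CPM (0.65 ± 0.14, adjusted p = 0.00570). Sirt1, a deacetylase, rose by 0.55 ± 0.17 (adjusted p = 0.0337) and Ncor1, the corepressor that recruits HDAC3, by 0.37 ± 0.12 (adjusted p = 0.0392). Against resilient mice 4 were higher (Nono, Csnk2a1, Ncor1 and Timeless) and 4 lower, among them Fbxl21, Fbxw11 and Hdac3, against 14.3% and 10.7% of all genes. Without the length-trend libraries 1 was called higher and 5 lower against control, where 19.9% and 18.0% of all genes were. Fbxl21 (−0.94), Fbxw11 (−0.82), Hdac3 (−0.79) and Nono (0.45) kept their calls, and Sirt1 (0.37 ± 0.18, adjusted p = 0.118) and Ncor1 (0.18 ± 0.09, adjusted p = 0.101) lost theirs. Against resilient mice 7 of the 8 calls were kept, and Ncor1 was not called (adjusted p = 0.0689). In all 3 of the 13 were then called higher and 5 lower, against 19.9% and 18.2% of all genes. Of 7 clock-controlled outputs none was called against control, and Tsc22d3, a glucocorticoid-induced gene, was lower than in resilient mice (−0.65 ± 0.19, adjusted p = 0.0243). Without the length-trend libraries 4 of the 7 were called lower and 1 higher against control, where 18.0% and 19.9% of all genes were. Against resilient mice 5 were called lower and 2 higher, where 18.2% and 19.9% of all genes were. Tsc22d3 was among the lower ones in both (−0.55 and −0.92). The marker differences of the PFC given above apply here too, as does the overlap of file form with stress once the length-trend libraries are left out.

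Among single libraries, Ciart varied most closely with Coq10b. Each library's log2 CPM was set against the mean of its group, and 12479 genes were ranked by their correlation with Ciart over the 40 libraries, as a description. Libraries share depth, file form and perhaps mice, so no p is given. Coq10b, a mitochondrial coenzyme Q binding protein gene, had r = 0.80 (rho = 0.75), and 0.85 within the long and 0.88 within the short form. Rbm3, a cold-inducible RNA-binding protein gene, followed at 0.65, with Dbp at 0.59, Acsf3 at 0.58 and AK080222 at 0.57. With the 2 libraries farthest in Ciart left out, the values were 0.77 for Coq10b, 0.55 for Rbm3 and 0.70 for Dbp. Of the pathway genes Bhlhe41, a repressor that competes at E-boxes, ranked highest at 0.48, and Clock stood at −0.46. Arntl had r = −0.27, with opposite signs in the forms (0.66 in the long, −0.73 in the short), and the least alike genes were Pm20d2 (−0.60), Micall1 (−0.60), Chaf1a (−0.58) and Cep250 (−0.58).

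**Figure D5:**
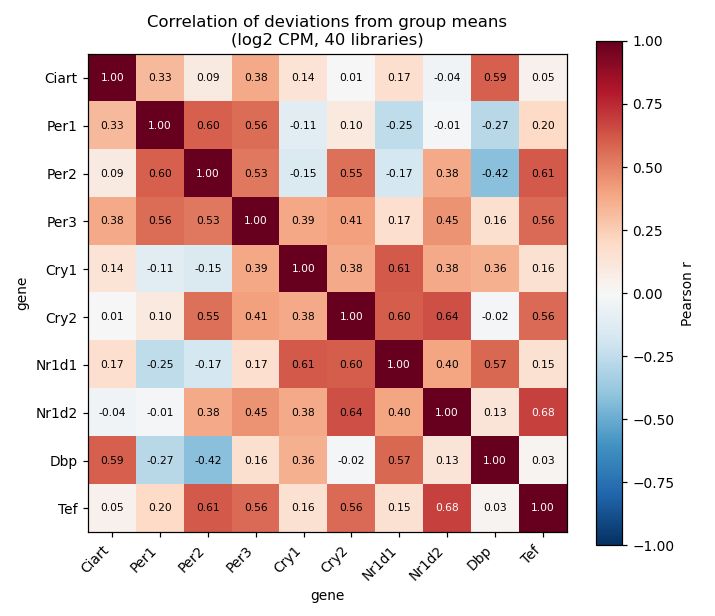
Pearson correlation between the 10 genes of log2 CPM deviations from the region by condition group mean, over 40 libraries, with red for positive and blue for negative values. Ciart pairs most closely with Dbp (0.59), and the Per genes correlate among themselves at 0.53 to 0.60.

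Within the set, Nr1d2 and Tef had r = 0.68, Cry2 and Nr1d2 0.64, Per2 and Tef 0.61, Cry1 and Nr1d1 0.61, and Per1 and Per2 0.60 over the 40 libraries. Per2 and Dbp varied in opposite directions (−0.42). Ciart had r from −0.04 for Nr1d2 to 0.17 for Nr1d1 with the Cry and Nr1d genes over all libraries, but opposite signs in the 2 forms for Nr1d1 (0.71 in the long, −0.35 in the short form, over the 12 and 21 libraries whose group held at least 2 of their form), Cry2 (0.47 and −0.27) and Cry1 (0.34 and −0.19). Beyond their group, single libraries ranged most for Per2, whose highest level was 5.36 times its lowest, and least for Tef at 2.00 times, with Ciart at 3.62 times.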

How the data were processed

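Ribosome-bound RNA from 40 pools of mouse tissue was analysed from the deposited counts, whole-number reads per gene symbol. The submitters' processing notes list STAR 2.0.0e, HTSeq and the build mm10. The gene models, the way HTSeq counted and its use of strand are not given in the sources used here. The 5 closing lines of HTSeq and rows named unknown (at most 5 reads a library) were left out of library sizes and tests.

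Each region was fitted once with edgeR 4.0.16 in R 4.3.3 (filterByExpr, TMM, robust quasi-likelihood F test, two-sided), with the 3 conditions sharing their spread. Averages over regions and interactions came from a fit of all 40 libraries in 12 groups, and regions of controls from a fit of the control libraries. A gene is called at a Benjamini-Hochberg adjusted p under 0.05 over all genes tested. All printed adjusted p-values are edgeR's. CPM used TMM factors of the 40 libraries. Correlations used log2 CPM with a prior count of 2, over genes with a mean of at least 1. Gene positions and exon lengths came from GENCODE vM21 (GRCm38), and 94.3% of the genes in the length trend's list had a length. All 10 genes passed the filter in every fit.

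Alternatives were DESeq2 1.42.0, RLE factors, no filter, a replicate block, the naming form as covariate or alone, single libraries left out and, chosen after seeing the data, the 6 length-trend libraries left out. The genes and lists were chosen with earlier results of these data known. Named genes were all 10 of the set, Arntl, Clock and Npas2, up to 4 called genes per list and direction, and the 6 most and 4 least like Ciart, of which some are not reported here. Figures and Bhlhe41, the highest ranked list gene, were chosen after values were seen. Libraries of a group differed by more than sampling noise in all 52 pairs (chi-square per degree of freedom 8.25 to 293), so none was merged. Same-numbered control and resilient libraries of the NAC deviated together (r = 0.767, 0.398 and 0.551), a likeness read from the data, as the labels state no pairs. In both groups replicate 1 had the long file form and replicates 2 and 3 the short form. Replicate number and file form thus overlap there. Whether pools of different regions share mice is not stated, so p-values describe the spread of the pools. The fits were tested on simulated counts with known changes. Unpurified input RNA was not analysed here.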

Additional observations from a re-analysis of the deposited data

Results flagged for a closer look

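Nr1d1 in PFC resilient replicate 4 stood at 110 CPM, far above the 82.1 to 86.7 CPM of the other 3 resilient libraries. Its gap to the next library took 0.836 of the group's range. It was the only library set apart among the 40 combinations of gene and group with 4 or more libraries that were examined. Chance sets apart about 1 such group in 20. This library had the short naming form and the other 3 the long form.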

How the results depend on the processing

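The counts of genes and of the 9 tested members moved by more than 1.5 times as follows, and the cause was not tested. In PFC stressed against control, 4353 genes and 0 members became 2875 genes with a replicate block, 8347 genes and 4 members with the long naming form only, 2 members with the short form only and 3 members without the length-trend libraries. Single libraries left out gave 1533 to 4645 genes (lowest without control replicate 1, and 2178 without control replicate 2) and 0 to 1 members. In PFC stressed against resilient, 3875 genes and 3 members became 7960 genes with the long form, 6 members with the short form, and 5859 genes and 5 members without the length-trend libraries. Leaving out single libraries gave 1938 to 4013 genes (lowest without resilient replicate 2, and 2109 without resilient replicate 1) and 0 to 3 members. PFC resilient against control had 0 calls, and 1 gene with the long form. The short form sets 1 resilient against 1 control library there, and its 428 genes and 1 member (Dbp) rest on the spread of the stressed libraries, so they compare those 2 libraries and not the conditions.

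DESeq2 called 190 genes in HIP stressed against resilient, 1 in NAC stressed against control, and 40, 29 and 3 in the CPU contrasts of stressed and resilient against control and of stressed against resilient, all at 0 with edgeR. The unfiltered fit called 1 gene in the last of these. HIP stressed against resilient gave 692 genes with the short form and 0 to 556 with single libraries left out (556 without stressed replicate 1).

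For the four-region averages, stressed against control (1703 genes) gave 0 without PFC, 836 without HIP and 3466 without CPU. Stressed against resilient (3205 genes) gave 0, 832 and 4902, with 1 member without CPU and 2 members with the replicate block or without the length-trend libraries. Those members were all called lower. Resilient against control (3 genes) gave 1 without HIP, 202 without the length-trend libraries, and 0 unfiltered, with the block, or without PFC, NAC or CPU. The stressed average had 1 member (Dbp) without the length-trend libraries, where 1612 of 16606 genes were called higher. The interaction of stress with region (0 genes) gave 6 with the block, 473 without HIP, 1 without NAC and 27 without the length-trend libraries. Control regions (3024 genes, 3 members) gave 1811 genes and 1 member with the block, 4913 genes with DESeq2, and 1784 to 3539 genes and 1 to 4 members with single libraries left out.

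Ciart changed sign only where it was near 0. PFC stressed against resilient became −0.0251 with the block, −0.223 with the short form, −0.0979 without the length-trend libraries and −0.0381 to 0.0952 with single libraries left out. HIP resilient against control became −0.067 with the short form and −0.107 to 0.203 with single libraries left out. Same-numbered libraries correlated above 0.1 in 15 of 34 pairs (−0.474 to 0.821). Every pair did so only for NAC control and resilient libraries, where replicate number and file form overlap. The replicate block left the NAC counts at 0 genes and 0 members. The numbers were not taken as pairs in the main fits of any region. NAC libraries of the long form alone could not be fitted. The depth behind each member value was at least 153 counts.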
